A study of Saccharomyces cerevisiae with 7 samples.

Results

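The genes described are the nuclear genes for mitochondrial ribosomal proteins in budding yeast, followed through a meiotic course of a mutant that lacks the cyclins Clb5 and Clb6. They were taken by name, as every gene whose standard symbol starts with MRPL, MRPS or RSM followed by digits, with a value in at least 5 of the 7 libraries. RefSeq lists 54 symbols with such names. Of these, 52 were used, out of 6141 open reading frames in the table; MRPL15 was not analysed here and MRPS16 had no value in any library. The 52 comprise 33 proteins of the large ribosomal subunit (MRPL) and 19 of the small subunit, of which 8 carry MRPS names and 11 carry RSM names. All 7 values were present for 46 of them and 6 values for the other 6: MRPL4, MRPL32 and RSM28 lacked the library titled 8 h, MRPL35 and MRPS17 lacked 1 h, and RSM27 lacked 5 h.

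Mitochondria keep a small genome and a ribosome of their own to translate it. In yeast that ribosome makes a handful of proteins, nearly all of them core membrane subunits of the respiratory chain and the ATP synthase. Almost every protein of the mitochondrial ribosome is encoded in the nucleus, made in the cytosol and imported. The small subunit reads the mitochondrial messenger RNA, and the large subunit joins the amino acids and is held at the inner membrane, where new chains are inserted. Some of the proteins belong to families shared with bacterial ribosomes, whereas others are found in mitochondria alone. Meiosis and sporulation in yeast depend on respiration, since the cells use acetate.

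Messenger RNA was measured on 7 arrays, 1 each at 1, 2, 3, 4, 5, 6 and 8 h of the course, with no replicate at any time. Every library comes from the Clb5Δ-Clb6Δ double deletion mutant, including the 0 h sample that serves as the baseline, and no wild-type course was analysed here; Clb5 and Clb6 are B-type cyclins that promote DNA replication before the meiotic divisions. The strain background, the medium and the number of clones are not named by the labels. On each array the cDNA of the time point carried Cy5 and a mix of meiotic mRNA carried Cy3, and the values used are log2 ratios to 0 h, so that -1 is a 2-fold lower ratio than at 0 h and 1 a 2-fold higher one. The last library has 8 h in its title and 6 h in its source name. It is called the final library, and the slopes take it as 8 h. A ratio gives no level, so no gene's abundance can be set against another's. In these bulk samples, fewer cells with a transcript and less of it per cell cannot be told apart.

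The library medians over all genes lay between -0.01 and 0.09, but the spread widened, from an SD of 0.96 at 1 h to 1.65 in the final library. The 10 genes listed as markers of meiosis (HOP1, ZIP1, DMC1, REC8, SPO11, NDT80, SPS1, SPS2, CDC5 and CLB1) had positive mean ratios, from 1.73 to 6.03. By a spline of time 10 of 10 changed, where 59.5% of all genes did. The deleted genes check nothing here, because a ratio to the same strain carries no level and the part of each gene that its probe reads is not given. CLB5 lay between -0.51 and 1.40, and CLB6 between -0.53 and 1.27. Although deleted in every library, CLB6 passed the line test over time used below (slope 0.28 ± 0.06 log2 units per h, limma adjusted p = 0.00533), and what its spot reads was not tested.

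The mRNAs of the mitochondrial ribosome stood below their 0 h values through most of the course. In time order, the median of the 52 genes was -1.11, -1.19, -0.94, -0.91, -0.82, -0.91 and -0.75. The group was thus already lower at the first time point, was least low in the final library, and its median never reached the 0 h value. Averaged over the course, 50 of 52 genes were below 0, with a median mean of -0.96, beside 48.0% of all genes below 0 and a median mean of 0.04. No test was made of a library against 0 h, since each time had 1 library.

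At 1 h, 31 of the 50 genes measured were at least 2-fold lower than at 0 h, where 12.1% of all genes were. That count was 29 of 52 at 2 h (12.3% of all genes), 25 of 52 at 3 h (13.0%) and 24 of 52 at 4 h (15.7%). It was 19 of 51 at 5 h (18.2%), 22 of 52 at 6 h (19.3%) and 17 of 49 in the final library (20.5%). The members' count became smaller while that of all genes became larger, so the excess of low members was widest early and narrowest late. When the libraries were brought to the same spread, the last count was 9 of 49, and with quantile normalization it was 10. No member was at least 2-fold higher than at 0 h from 1 to 4 h, where between 12.0% (1 h) and 17.6% (4 h) of all genes were, and 1 was at 5 h (18.8% of all genes), 1 at 6 h (19.6%) and 3 in the final library (22.7%). These 3 were MRPS17, MRPL37 and MRPL27.

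Of the 46 genes with all 7 values, 32 were below 0 in every library, compared with 24.2% of all genes, and 9 were at least 2-fold lower in every library, compared with 6.17%. Over all 52, 12 were at least 2-fold lower in no library. The heat map of the members by library shows this as a largely one-sided field with a few exceptions at the top of each panel.

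**Figure D1:**
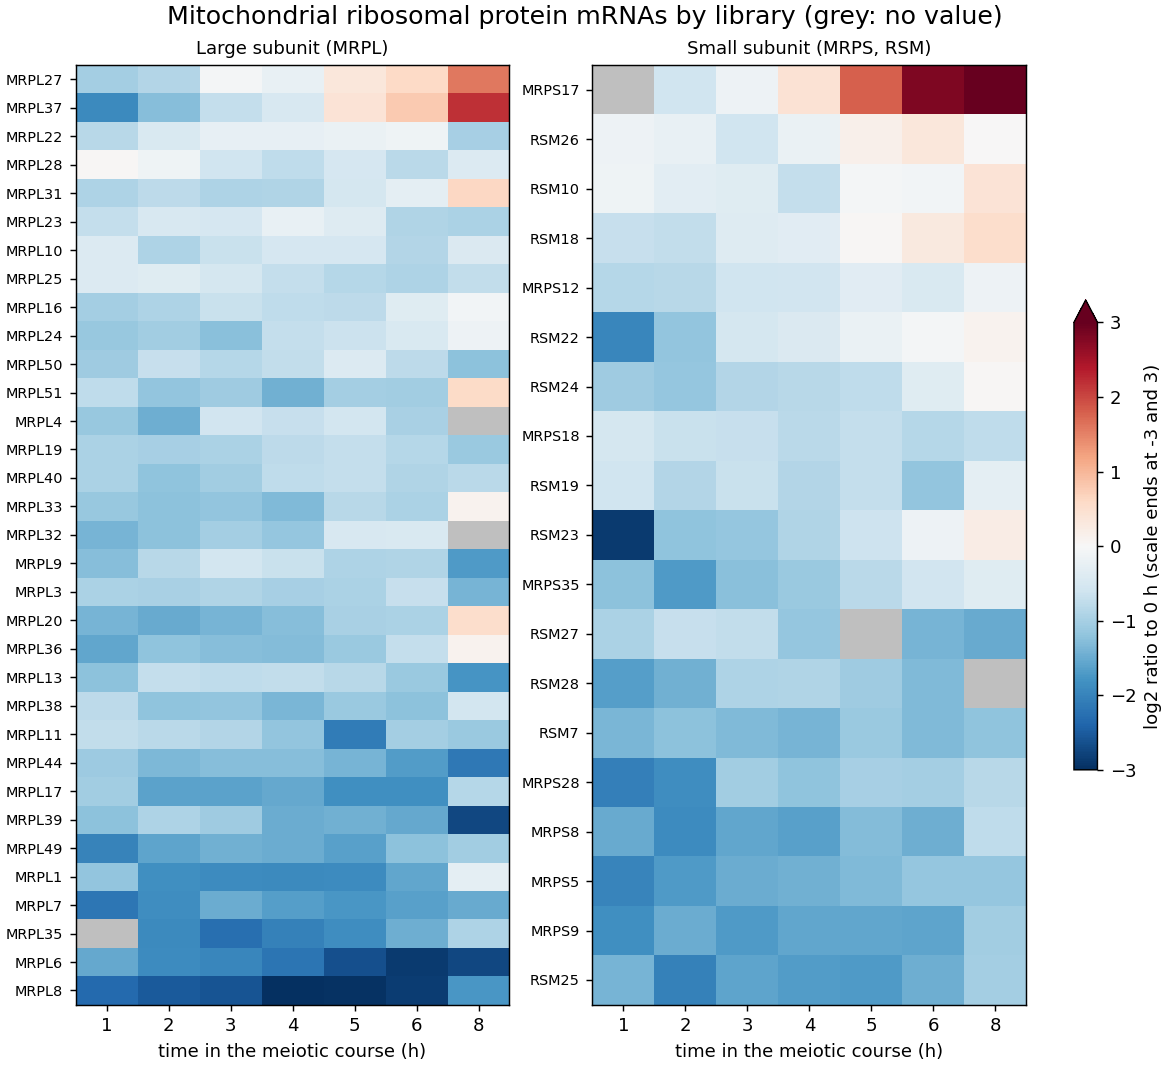
Log2 ratio to 0 h of each of the 52 genes (vertical axis, large and small subunit apart, sorted from the highest mean at the top) in each of the 7 libraries (horizontal axis, time in h), with missing values left grey. Most cells are below 0; MRPS17, MRPL37 and MRPL27 are the 3 genes that pass 2-fold above 0 h.

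The lowest member was MRPL8, a large-subunit protein of the bL17 family, at -2.34, -2.51, -2.60, -2.99, -2.98, -2.85 and -1.76 in time order. It stayed far below its 0 h value throughout and was least low in the final library. MRPL6, the uL6 protein, went the other way, with -1.52, -1.89, -1.96, -2.20, -2.63, -2.87 and -2.73. MRPL7, the uL5 protein, was lowest at the start, at -2.17, and then between -1.86 and -1.49. MRPL35 (mL38), measured from 2 h, went from -1.90 and -2.27 to -0.92. In the small subunit the lowest mean was that of RSM25 (mS23), -1.55, with values between -2.03 at 2 h and -1.01 in the final library. These 5 genes had the lowest means of the group, from -2.57 for MRPL8 to -1.55.

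The 5 highest means belonged to MRPS17, MRPL27, RSM26, MRPL37 and RSM10. RSM26 (mS42), a protein with a fold like that of superoxide dismutases, stayed near its 0 h value, at -0.16, -0.22, -0.59, -0.19, 0.15, 0.34 and 0.01. RSM10 (uS10) lay between -0.71 at 4 h and 0.40 in the final library. The flattest member was RSM7 (uS7), a protein that nucleates the head of the small subunit in bacteria: it was lower by a nearly constant amount, between -1.39 and -1.11. At the other extreme MRPL37 covered a range of 4.11 log2 units, and the median range over the group was 1.03.

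The second question is whether the genes moved along the course once below their 0 h values. A line over time was fitted by limma to all 5792 genes with at least 5 values; "rose" and "fell" stand for a slope with a Benjamini-Hochberg adjusted p under 0.05. By that test 18 of 52 members rose, beside 17.3% of all genes, and 3 of 52 fell, beside 14.7%. A natural spline of time, which also finds courses that turn, called 34 of 52 changed, beside 59.5% of all genes, a share near that background. The median slope was 0.08 log2 units per h over the members and -0.01 over all genes. With the libraries brought to the same spread, 29 members rose and 0 fell, where 16.2% and 11.0% of all genes did. With quantile normalization the counts were 24 and 0, where 13.0% and 13.3% did. Without the final library, 9 of the 18 that rose and 1 of the 3 that fell were still called, where 12.7% and 13.9% of all genes rose and fell. MRPL32, among the 9, has no value in that library, so the omission could not test its slope.

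The members did not move evenly. From 4 to 5 h, 38 of 51 went up, where 45.9% of all genes did, and from 6 h to the final library, 37 of 49 went up, where 51.7% did. At the 4 other steps the members were more evenly divided, with 25 of 50 up from 1 to 2 h (45.1% of all genes), 32 of 52 from 2 to 3 h (51.9%), 24 of 52 from 3 to 4 h (53.2%) and 26 of 51 from 5 to 6 h (49.4%).

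The steepest course of all was that of MRPS17, the uS17 protein of the small subunit, which read -0.59, -0.15, 0.43, 1.79, 2.80 and 3.15 from 2 h to the final library, with no value at 1 h. It crossed its 0 h value between 3 and 4 h and was the highest member in each library from 4 h on. It rose by 0.70 ± 0.08 log2 units per h (SE, 6 libraries, limma adjusted p = 0.000785), with slopes from 0.55 to 0.94 and adjusted p from 0.000257 to 0.00768 over the alternatives. The genes beside it on the chromosome did not share the course: GCV2, the glycine cleavage P subunit, fell, from 1.60 at 1 h to -0.85 in the final library (limma slope -0.39 per h, adjusted p = 0.000628), and YMR187C had a slope of -0.11 per h (adjusted p = 0.0824).

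MRPL37 (mL54), of the large subunit, read -1.91, -1.29, -0.70, -0.48, 0.41, 0.79 and 2.20. It went up at every step, from its lowest ratio at 1 h to well above its 0 h value. Its slope was 0.57 ± 0.04 log2 units per h (limma adjusted p = 0.000267), and between 0.54 and 0.67 over the alternatives. MRPL27 (mL41), also of the large subunit, read -1.02, -0.87, -0.05, -0.21, 0.34, 0.60 and 1.59. Its path ran like that of MRPL37 over a narrower range, at 0.36 ± 0.04 log2 units per h (limma adjusted p = 0.000634). None of the 4 genes flanking them, REI1, SDH8, DUG2 and SSH1, passed the line test, with adjusted p from 0.12 to 0.64.

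In the small subunit RSM23 (mS29), the GTP-binding protein whose human counterpart is DAP3, read -2.87, -1.22, -1.17, -0.91, -0.63, -0.15 and 0.23. The first library was far below the rest, and later libraries approached the 0 h value. Its slope was 0.38 ± 0.07 per h (limma adjusted p = 0.00298), and 0.26 without the 1 h library (adjusted p = 0.00225, range over the alternatives 0.00208 to 0.0116). RSM22, a methyltransferase-like protein that acts in small-subunit assembly, read -1.96, -1.19, -0.52, -0.44, -0.20, -0.05 and 0.11. It too was lowest at 1 h and came back to about its 0 h value, and rose by 0.27 ± 0.05 per h (limma adjusted p = 0.00601). RSM18 (bS18) read -0.69, -0.74, -0.38, -0.35, 0.03, 0.28 and 0.52, and rose by 0.20 ± 0.04 per h (limma adjusted p = 0.00421).

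**Figure D2:**
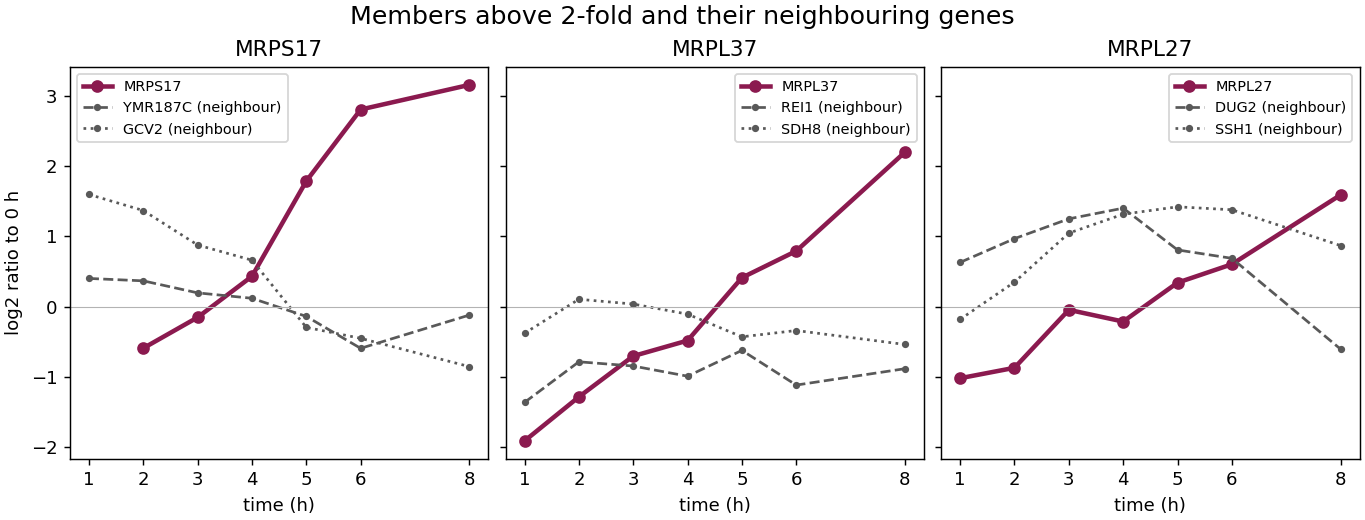
Log2 ratio to 0 h (vertical axis) against time in h (horizontal axis) for MRPS17, MRPL37 and MRPL27, each with its neighbouring genes on the chromosome; each point is 1 library. MRPS17 ends at 3.15 and MRPL37 at 2.20, while GCV2 beside MRPS17 ends at -0.85.

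The other 12 genes that rose had slopes between 0.12 and 0.26 log2 units per h. In the large subunit they were MRPL20, MRPL36, MRPL31, MRPL35, MRPL32, MRPL33, MRPL24 and MRPL16, and in the small subunit MRPS35, RSM24, MRPS28 and MRPS5. MRPL20 (mL58) read -1.40, -1.52, -1.40, -1.29, -0.96, -0.95 and 0.53, so that most of its change lay in the final library alone. MRPL36 (bL31), which bridges the subunits in bacteria, read -1.55, -1.21, -1.27, -1.31, -1.12, -0.71 and 0.12, and MRPL31 (mL60) read -0.92, -0.78, -0.93, -0.91, -0.54, -0.29 and 0.62. For these 3 genes the line passed with all libraries (limma adjusted p of 0.0116, 0.0103 and 0.0143) and not without the final library (0.104, 0.0984 and 0.146). Their slopes shrank to 0.12, 0.13 and 0.11 per h. Another 6 genes lost their calls without that library. The slope of MRPL33 went to 0.06 from 0.16, and that of MRPL35 to 0.13 from 0.20. MRPS35 (0.17 in both fits), MRPL24 (0.15 and 0.14), RSM24 (0.17 and 0.14) and MRPL16 (0.13 and 0.10) kept slopes nearer to those with all libraries.

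MRPL32 (bL32), whose presequence is cleaved by the inner-membrane AAA protease before it joins the ribosome, read -1.39, -1.24, -1.02, -1.15, -0.48 and -0.45, with no value in the final library. Its later values were the less low ones, and it rose by 0.19 ± 0.06 per h (6 libraries, limma adjusted p = 0.0368). MRPS5 (uS5), a protein of the decoding region, read -1.98, -1.71, -1.48, -1.43, -1.33, -1.17 and -1.15, going up at every step yet staying more than 2-fold below 0 h; its slope was 0.12 ± 0.04 per h (limma adjusted p = 0.0386). The calls for MRPL32, MRPS5 and MRPS28 were lost without the 1 h library, with slopes of 0.21, 0.09 and 0.13 per h (limma adjusted p of 0.0586, 0.0999 and 0.0891). The call for MRPL32 was lost as well without the 2, 3, 5 or 6 h library, with slopes of 0.17 to 0.20 and limma adjusted p of 0.0731 to 0.14. Of the 18 genes that rose, 3 had a neighbouring gene that rose too, MRPS5 beside SPO23, MRPL32 beside CDC10 and MRPL36 beside TFC1. Among the other 34 members 11 had such a neighbour. Over all genes 17.3% rose, but a member was counted if either neighbour rose, so that share is not a like measure. Neither count was tested.

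The 3 genes that fell all belong to the large subunit. MRPL39 (bL33) read -1.22, -0.92, -1.06, -1.49, -1.45, -1.54 and -2.73, and its last value lay apart from the other 6. MRPL44 (mL53) read -1.10, -1.34, -1.28, -1.27, -1.39, -1.66 and -2.15, also lowest in the final library. Their slopes were -0.21 ± 0.05 and -0.13 ± 0.04 log2 units per h (limma adjusted p of 0.0166 and 0.0306), and neither passed without the final library (adjusted p of 0.179 and 0.206). MRPL6, whose values are given above with the lowest members, fell by 0.19 per h (SE 0.04, limma adjusted p = 0.00888) and still did without that library (adjusted p = 0.00433). With the libraries brought to the same spread none of the 3 passed, with adjusted p of 0.341 for MRPL39, 0.864 for MRPL6 and 0.974 for MRPL44.

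The steepest negative slope in the small subunit was that of RSM27 (mS33), which read -0.94, -0.69, -0.73, -1.17, -1.40 and -1.50 with no value at 5 h, at -0.11 ± 0.04 per h (limma adjusted p = 0.076). MRPL13 (mL50) read -1.23, -0.71, -0.76, -0.74, -0.84, -1.11 and -1.78, low at both ends of the course. Its slope of -0.09 ± 0.06 per h did not pass (limma adjusted p = 0.225), while the spline did (adjusted p = 0.00644). MRPL8, with the lowest mean, also had a course that turned: its line did not pass (slope 0.04 ± 0.07, limma adjusted p = 0.654) and its spline did (adjusted p = 0.00852). Neither spline passed without the final library, with adjusted p of 0.121 for MRPL13 and 0.0591 for MRPL8.

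**Figure D3:**
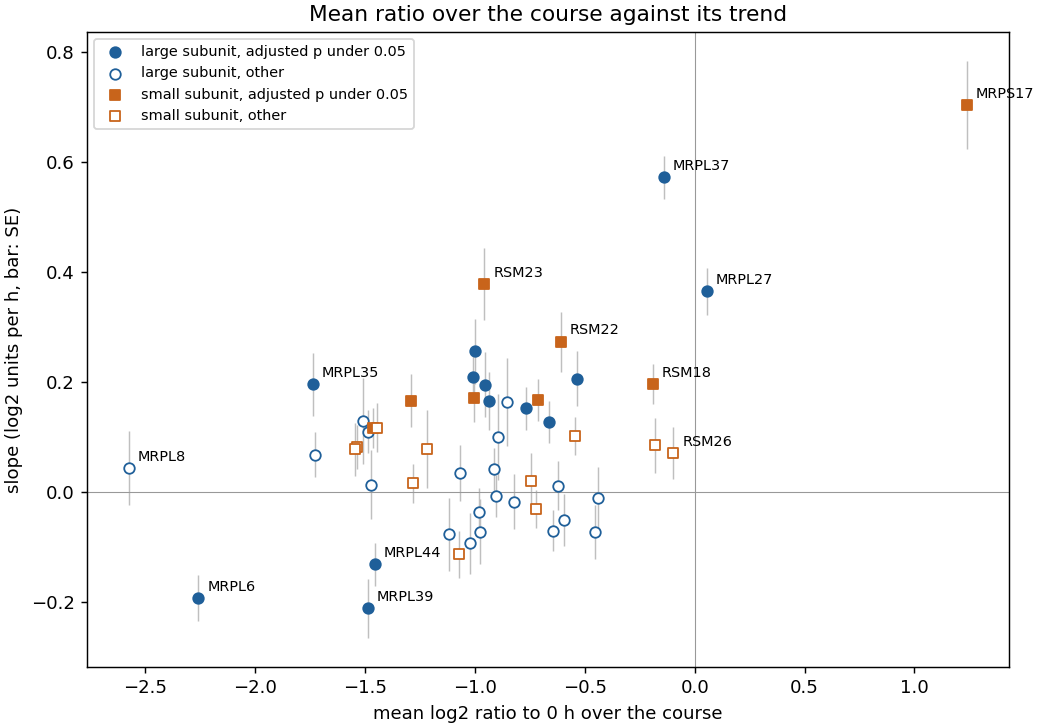
Slope in log2 units per h (vertical axis, bars give the SE) against the mean log2 ratio to 0 h (horizontal axis) for each of the 52 genes, with filled marks where the line passed at an adjusted p under 0.05. MRPS17 stands alone at the upper right (1.24 and 0.70), MRPL8 and MRPL6 lie at the far left, and 50 of 52 genes lie left of 0.

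The large and the small subunit were then set side by side. They stood equally far below 0 h on average, with a median mean of -0.96 for the 33 large-subunit genes and -0.96 for the 19 small-subunit genes. They separated in their later courses: in time order the large-subunit medians were -1.08, -1.19, -1.02, -0.99, -0.86, -0.92 and -0.86. The small-subunit medians were -1.29, -1.19, -0.89, -0.90, -0.74, -0.86 and -0.33. The small subunit was thus the lower one at 1 h, by 0.21 log2 units, and the less low one in the final library, by 0.53, with 0.00 to 0.13 between them from 2 to 6 h. In the final library the 8 MRPS genes had a median of -0.75, near that of the large subunit, and the 10 RSM genes measured one of 0.03. In that library the gap to the large subunit thus lay mainly with the RSM genes. At 1 h the RSM genes were already the less low set, with a median of -1.05 beside -1.52 for MRPS. The median slope was 0.12 log2 units per h for the MRPS genes and 0.08 for the RSM genes. Genes are not replicates of a subunit, and the difference between the subunits was not tested.

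By the line, 10 of 33 large-subunit genes rose and 3 fell, and 8 of 19 small-subunit genes rose and 0 fell. Over all genes 17.3% rose and 14.7% fell. The median slope was 0.04 log2 units per h for the large subunit and 0.10 for the small. Positive slopes were found for 17 of 19 small-subunit and 20 of 33 large-subunit genes, beside 2723 of 5792 of all genes. The spline called 22 of 33 and 12 of 19, both near the share of all genes, 59.5%. Without the final library the line called 3 large-subunit genes up and 1 down, and 6 small-subunit genes up and 0 down. Over all genes it then called 12.7% up and 13.9% down. MRPL32, among the 3, has no value in that library, so the omission could not test its slope. With the libraries brought to the same spread, 16 of 33 and 13 of 19 rose and none fell, where 16.2% of all genes rose and 11.0% fell. Most of the large-subunit calls were thus lost without the final library, while the median slope of that subunit was 0.04 per h with and without it. Leaving out 1 of the other libraries gave 6 to 11 large-subunit genes rising, where 12.8% to 20.4% of all genes rose.

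Counts of genes going up differed in the same direction at 2 steps. From 4 to 5 h, 16 of 18 small-subunit and 22 of 33 large-subunit genes went up (45.9% of all genes). From 6 h to the final library the counts were 16 of 18 and 21 of 31 (51.7%). The sizes did not split at that last step, with a median of 0.26 log2 units for the small subunit and 0.29 for the large. From 4 to 5 h these medians were 0.23 and 0.04. Among genes with all 7 values, 13 of 16 of the small subunit had their highest value in the final library, compared with 14 of 30 of the large subunit and 29.6% of all genes. None of the 16 had its lowest value there, compared with 9 of 30 large-subunit genes and 29.8% of all genes. RSM27 of the small subunit, left out of this count for its missing 5 h value, was lowest in the final library, at -1.50. The lowest value fell at 1 h for 6 of 16 small-subunit and 6 of 30 large-subunit genes, beside 18.1% of all genes. The large subunit was therefore the more divided of the 2, with genes such as MRPL37 and MRPL20 highest at the end and others such as MRPL39 and MRPL13 lowest there.

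**Figure D4:**
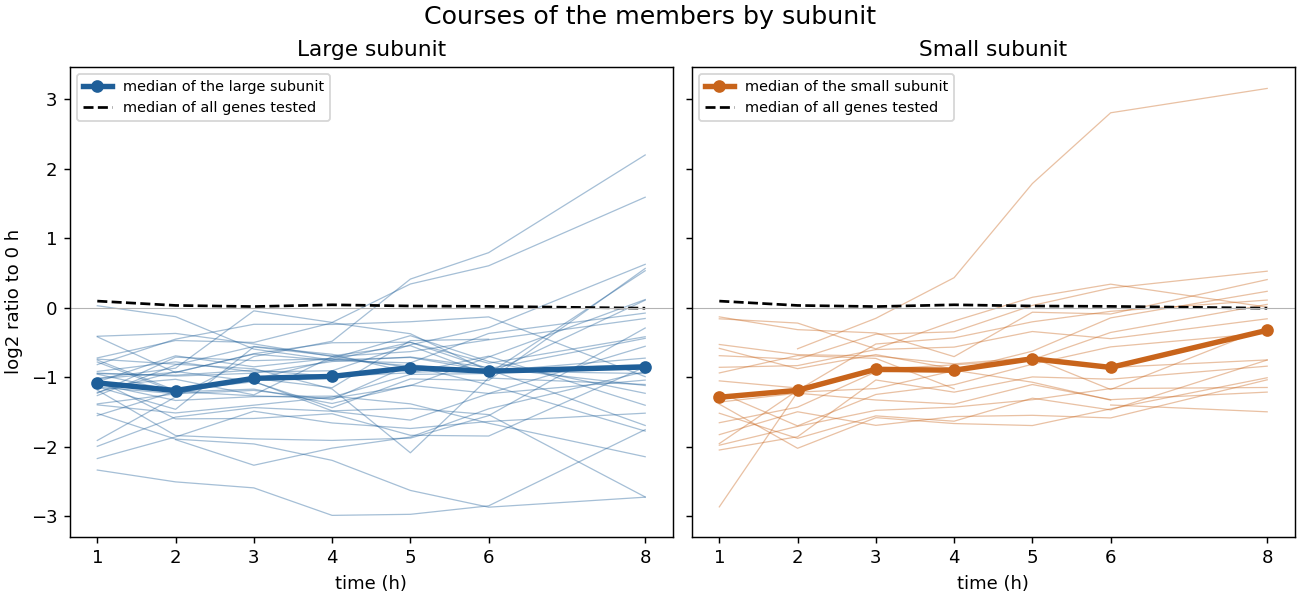
Log2 ratio to 0 h (vertical axis) against time in h (horizontal axis) for each large-subunit gene (left) and each small-subunit gene (right), with the median of the subunit as the thick line and the median of all genes tested as the dashed line. Both medians stay below 0, and in the final library they lie at -0.86 and -0.33.

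Within the small subunit, the 8 MRPS genes had a median mean of -1.15 and the 11 RSM genes one of -0.75. In each set 4 rose, where 17.3% of all genes did. The members were also divided by descent. Of the 32 genes of families shared with bacterial ribosomes 9 rose and 2 fell, where 17.3% and 14.7% of all genes did. Of the 20 specific to mitochondria 9 rose and 1 fell. Among these RSM22 was counted by its role, since the gene table gives it no family name. The median means of the bacterial-family and mitochondrion-specific sets were -0.95 and -0.97, and their medians in the final library were -0.83 and -0.37. The means of single genes ran from -2.57 to 1.24 in the bacterial families and from -1.74 to 0.05 in the mitochondrion-specific set. Neither division was tested.

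Single genes followed the group to different degrees. Measured by the root mean square distance from the median of the other members, MRPL40 (uL24) was nearest, at 0.11 log2 units, and MRPS17 farthest, at 2.54. MRPL40 read -0.96, -1.21, -1.03, -0.75, -0.72, -0.91 and -0.82. Of the members with an incomplete record, MRPL4 (uL29) lay between -1.46 at 2 h and -0.55 at 5 h, and RSM28 between -1.66 at 1 h and -0.90 at 4 h.

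Outside the group, the genes with the courses nearest to its median over the 7 libraries were, in order, EFM1, HGH1, TIM23, AEP2, MRP2, YME1, HSP30, TOM6, TIM17 and YPR099C, at distances of 0.13 to 0.19. TIM23, TIM17 and TOM6 are parts of the translocases that bring proteins into mitochondria, and MRP2 is itself a protein of the small mitochondrial subunit. AEP2 acts on the mitochondrial ATP synthase message and YME1 is an inner-membrane protease, whereas EFM1 and HGH1 act on cytosolic translation elongation factors. YPR099C overlaps MRPL51, so its reading need not be separate from that gene.

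Further proteins of the mitochondrial ribosome carry other names, and were listed apart. Over all genes tested, 17.3% rose and 14.7% fell by the line, and 12.7% and 13.9% did without the final library. Of the 9 measured for the large subunit, 3 rose and 0 fell, with a median mean of -1.21. Those that rose were MRP20, MRP49 and YML6, with ratios of 1.68, 1.00 and 2.18 in the final library. MNP1 (the L7/L12 stalk protein) and IMG1 were the lowest of this list, with means of -1.78 and -1.38. Of the 10 measured for the small subunit 4 rose and 0 fell, with a median mean of -1.01; NAM9, MRP51, PET123 and MRP2 rose, and MRP4 had the lowest mean, -1.91. With these 19 added, 25 of 71 mitochondrial ribosomal proteins rose, 3 fell and 66 had a mean below 0. Without the final library 13 rose and 2 fell, with MRPL32, which has no value in that library, among the 13. YML6, MRP51 and MRP2 were among the calls lost (limma adjusted p of 0.162, 0.134 and 0.0926).

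The factors that work with this ribosome stood nearer to their 0 h values. Of 12 translation factors 4 rose and 1 fell, beside 17.3% and 14.7% of all genes, with a median mean of -0.13. AIM23, the mitochondrial initiation factor IF3, went from -0.53 at 1 h to 2.17 in the final library, a rise of 0.41 log2 units per h (limma adjusted p = 0.000481). PTH2 also rose, whereas the elongation factor MEF1 fell, at -0.13 log2 units per h (limma adjusted p = 0.0383), although not without the final library (adjusted p = 0.279) and not once the libraries were brought to the same spread, where 0 of the 12 fell. RMD9 and RRF1 were the lowest, with means of -1.39 and -1.24.

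Of 17 genes listed for the charging of mitochondrial tRNAs, not all of them synthetases, 1 rose and 5 fell (17.3% and 14.7% of all genes). HER2 was the gene that rose, and the median mean was -0.71. Without the final library 2 fell (13.9% of all genes). None fell with the libraries at the same spread (11.0%) or quantile normalized (13.3%). MSY1, the tyrosyl-tRNA synthetase, had the lowest mean, -2.05, and fell to -2.41 in the final library (limma adjusted p = 0.029). MSD1 was next, at -1.72, and PET112 and SLM5 had the highest means, 0.27 and 0.26. Of 16 translational activators, which act on single mitochondrial messages, 2 rose and 0 fell, beside 17.3% and 14.7% of all genes. Their median mean was -0.31, with means from -1.16 for CBP6 to 0.56 for SOV1. Of 13 genes for assembly and membrane attachment of the ribosome 0 rose and 2 fell by the line, the falls near the 14.7% of all genes. By the spline 5 changed, where 59.5% of all genes did. Without the final library 0 fell, and at the same spread 1 rose and 1 fell. MAM33 was the lowest, with a mean of -2.39.

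Nuclear genes for respiration and ATP synthesis moved differently from those for the mitochondrial ribosome. Of 36 nuclear genes for the respiratory chain and the ATP synthase, 18 fell and 1 rose, beside 14.7% and 17.3% of all genes. Their median mean was -1.38. Their medians in time order were -0.999, -0.98, -1.02, -1.28, -1.42, -1.81 and -2.10, whereas that of the mitochondrial ribosome went from -1.11 to -0.75. The lists began alike and parted after 3 h. The lowest means were those of QCR10, -2.56, and ATP16, -2.51, and the highest were those of COX5B, the subunit isoform of low oxygen, 0.95, and CYT1, -0.08. Without the final library 15 of the 36 fell (13.9% of all genes). The count depended on scaling, with 9 falling after quantile normalization (13.3% of all genes) and 3 at the same spread (11.0%). Under these settings the members gave 24 and 29 rising (13.0% and 16.2% of all genes) and 0 falling. The gap between the lists was not tested.

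The cytosolic ribosomal proteins were lower still, with a median mean of -2.62 over 130 genes. By the line 0 rose, where 17.3% of all genes did, and 22 fell, near the 14.7% of all genes. The direction of the calls turned with scaling. At the same spread 49 rose and 2 fell (16.2% and 11.0% of all genes). After quantile normalization 17 rose and 5 fell (13.0% and 13.3%). Their medians lay between -2.08 at 1 h and -3.01 at 4 h. The mRNAs of the mitochondrial ribosome thus stood between those of the cytosolic ribosome and the median of all genes in each library.

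**Figure D5:**
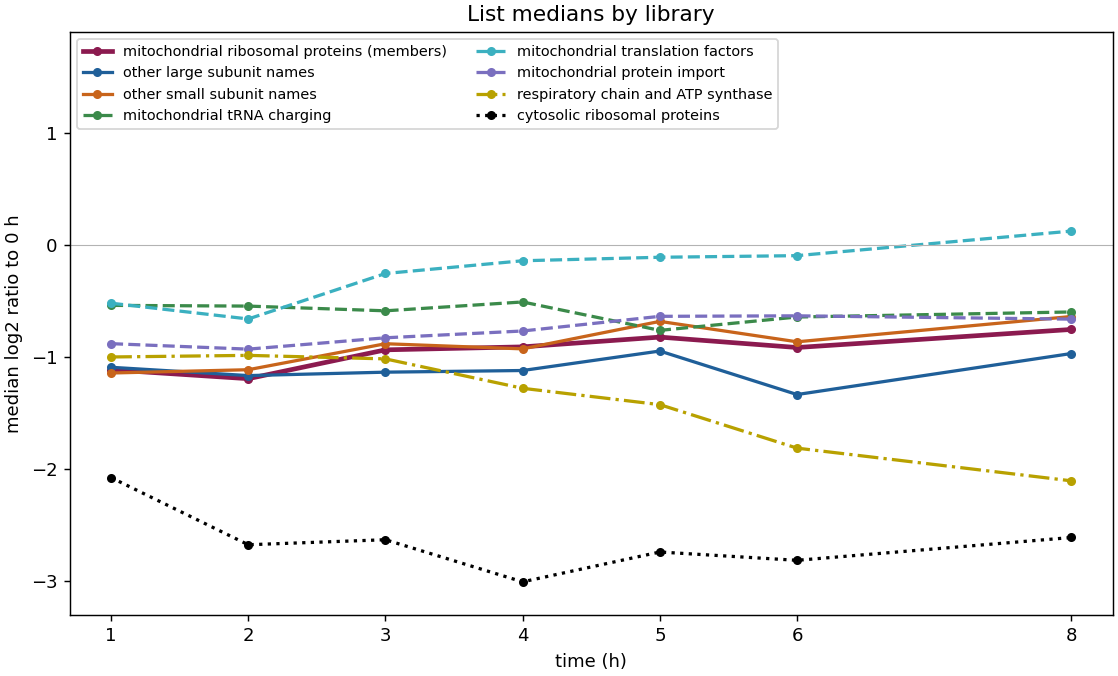
Median log2 ratio to 0 h (vertical axis) against time in h (horizontal axis) for the 52 members (thick line), for other genes of mitochondrial translation, import and respiration, and for cytosolic ribosomal proteins; each point is the median over the genes of a list in 1 library. In the final library the members lie at -0.75, the respiratory chain at -2.10 and the cytosolic ribosomal proteins at -2.61.

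Of 12 regulators of mitochondrial genes and of growth, 3 rose and 0 fell, beside 17.3% and 14.7% of all genes. HAP4, the activating subunit of the respiratory regulator HAP, went from -0.49 at 1 h to 1.72 in the final library (limma slope 0.40 per h, adjusted p = 0.00172). HAP3 rose as well, from -1.09 to 0.65, whereas HAP2 and HAP5 of the same complex had mean ratios of -0.17 and -0.29 and did not pass the line. PUF3, an RNA-binding protein that binds the messages of many mitochondrial ribosomal proteins, rose from -0.08 at 1 h to 0.77 (limma slope 0.15 per h, adjusted p = 0.015). The means of SNF1, MIG1, HAP1, SFP1, RTG1, RTG2 and RTG3 lay between -0.26 and 0.51, and none passed the line.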

How the data were processed

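Each array compared Cy5-labelled cDNA of 1 time point with a Cy3-labelled meiotic mix. Per the labels' design text, the authors divided this ratio by that at 0 h and deposited log2 values. Scanner, spot filter, background correction and any between-array normalization are not stated, and no intensities were used. The table was used as deposited; 5655 of 6141 open reading frames matched a locus tag of RefSeq assembly R64, which was used for names and neighbours. For all 5792 genes with 5 or more values, limma 3.58.1 (lmFit and eBayes under R 4.3.3) gave slopes and splines (2 degrees of freedom, F test). Adjustment was by Benjamini-Hochberg, and calls needed an adjusted p under 0.05. Without replicates, such p-values reflect only how single libraries scatter around a curve. Of the procedures, only the line fit was tested on simulated data. The members, the gene lists and the rule for named genes (highest, lowest, steepest, widest, narrowest and incomplete members, extremes of each list, and neighbours) were chosen with earlier results of these data known. MRPL40, MRPL36, MRPL31, MRPL16 and other genes that rose, RSM18, MRPS5 and MRPS28 included, were named beyond that rule after their values were seen. Alternatives were other scalings, missing-value filters, baselines and times, and each library left out; those for other gene lists were chosen after seeing the data. "The same spread" means an equal median absolute deviation. No sequence is shown.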

Additional observations from a re-analysis of the deposited data

How the results depend on the processing

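The trend calls depended on scaling and on the last library. Against 18 genes that rose and 3 that fell, libraries at the same median absolute deviation gave 29 and 0, with a median slope of 0.21 in place of 0.08, and quantile normalization gave 24 and 0, with 0.17. Leaving out each library in turn gave 9 to 19 rising, 1 to 6 falling and 17 to 31 changed by the spline. Over all genes these omissions gave 12.7% to 20.4% rising, 543 to 1023 of 5792 falling and 48.6% to 57.5% changed. Without the 1 h library 6 fell (1023 of 5792 of all genes), and the fewest rose and changed without the final library, titled 8 h. With that library taken as 6 h, 1 fell (688 of 5792 of all genes). By the spline 14 then changed, against 34, where 42.8% of all genes changed, against 59.5%. With ratios to the 1 h library 6 fell (1003 of 5689 of all genes), and the median of means was 0.24. At least 2-fold lower in the final library were 17 genes, but 9 at the same median absolute deviation and 10 after quantile normalization, chosen after seeing the data. Under at least 1 alternative, 17 of 52 slopes changed sign, among them MRPL1 and MRPL51 without the final library (-0.06 and -0.04). Of the 20 members named by the rule, this held for MRPL13 (0.018 at the same deviation, -0.172 to 0.0073 with 1 library left out), MRPL44 (0.0022 at the same deviation) and MRPL8 (-0.0063 with the final library taken as 6 h, -0.125 to 0.101 with 1 library left out). The cause of these shifts was not tested. Over the 20 named members, 256 of 294 settings kept direction and side of the threshold, 24 lost a call, 9 gained one and 5 reversed. No paired analysis was possible because each time had 1 library. Depth is unknown, and the number of arrays limits the precision.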

Other observations

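Genes for mitochondrial DNA and RNA upkeep stood apart from the ribosome in the same libraries. Of 10 tested, 4 rose and 1 fell, beside 17.3% and 14.7% of all genes, with a median mean of 0.13. RPM2, the protein subunit of mitochondrial RNase P, ABF2, which packages mitochondrial DNA, and MIP1, the mitochondrial DNA polymerase, rose and had mean ratios of 1.55, 1.50 and 1.27, with 2.99, 2.62 and 2.72 in the final library. The lowest means were those of MSS116, an RNA helicase, at -0.98, and MGM101, at -0.38. RPO41, the mitochondrial RNA polymerase, fell from 0.34 at 1 h to -0.40 in the final library, titled 8 h (limma slope -0.12 per h, adjusted p = 0.0405). Without that library its slope was -0.10 and the call was lost (adjusted p = 0.159); 0 of the 10 fell there, after centring each library, at the same median absolute deviation, or with that library taken as 6 h.

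Of 23 genes for protein import and folding in mitochondria 6 rose and 1 fell, beside 17.3% and 14.7% of all genes. Their median mean was -0.71. Without the final library 4 rose and 3 fell (12.7% and 13.9% of all genes). At the same median absolute deviation 12 rose and 0 fell (16.2% and 11.0%). The receptor TOM70 rose from 0.05 at 1 h to 2.13 in the final library (limma adjusted p = 0.00204), and TIM12 had the next highest mean, 0.66. MAS2, a subunit of the processing peptidase, and TIM44, which holds the import motor, had the lowest means, -1.96 and -1.95.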
